A study of Mus musculus with 20 samples.

Results

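The corneal epithelium of old and young mice was compared in 10 of the 20 libraries of the series, the 5 labelled 24 to 25 months (24-month) and the 5 labelled 2 to 3 months (young). All were chosen by their age label alone. Every animal was a naïve wild-type female of the C57BL/6J strain. Each library held the epithelium of both corneas of 1 mouse, lifted off by scraping, so the 5 libraries of an age are 5 animals. Per the study's methods, mice were bought, aged in house or obtained from the National Institute of Aging, and the labels do not say which animal came from where, so source and age cannot be told apart. The other 10 libraries, at 12 and 18 months, entered the fit to estimate the spread and to place changes in time.

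The corneal epithelium is a stratified, non-keratinized sheet that is renewed from stem cells at the limbus, the border with the conjunctiva. Basal cells divide and are anchored by hemidesmosomes, and flattened surface cells carry tight junctions and a mucin-rich glycocalyx that hold the tear film and keep out microbes. The tissue is crossed by sensory nerve endings, makes enzymes such as aldehyde dehydrogenases in amounts that earn them the name corneal crystallins, and is kept avascular.

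The 10 libraries held 7899145 to 10762360 reads on genes each, with medians of 8792912 (young) and 8947693 (24-month). Values are normalized counts, that is, reads divided by a size factor of the library. Genes were tested where their mean over the 10 libraries reached 10. Up- or downregulated, or called, below means an adjusted p of at most 0.05 together with a 1.2-fold change or more in the limma fit across all 4 ages. Log2 changes are 24-month minus young with their standard error (SE), and where a pair of values is given the young group comes first, as mean ± SD of 5 libraries. Of 11319 genes tested, 89 (0.786%) were called, 35 (0.309%) up and 54 (0.477%) down. The libraries of both ages did not overlap at all for 78 of the 89, and for 321 of all genes tested (2.84%, or 1.26% higher and 1.57% lower at 24 months). The 89 were chosen by these same libraries, so their lack of overlap is no separate support for the calls. Without 24-month replicate 3 the count of calls was 56 and without 24-month replicate 4 it was 59, and 43 of the 89 were called in each of the 10 fits that left out 1 library. The median log2 fold change over all tested genes was 0.0047, and 50.7% lay above 0. Counts of list members above or below 0, given below, are to be read beside that share, and none was tested.

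The tissue label was checked against marker genes. The 14 corneal epithelial markers, among them *Krt12*, *Aldh3a1* and *Pax6*, summed to 443585 to 547515 normalized counts in the young libraries and 470833 to 512106 at 24 months, and limma called 0 of the 14, with 2 at an unadjusted p below 0.05. The marker sums of other cells were lower, that of conjunctiva and goblet cells being the highest among them and mostly *Krt13*. The 25 markers of stromal keratocytes, the collagen-producing cells beneath the epithelium, summed to 2785 to 6591 in young libraries against 1010.2 to 1926 at 24 months, with *Ptgds* at 0 in all 10 libraries. Of 22 tested keratocyte markers, 9 were downregulated, where 0.477% of all genes tested were, and the median log2 fold change was −2.14. Members near 0 at 24 months, such as *Serpinf1*, reached the mean of 10 through the young libraries alone. The median and the number of falls therefore lean toward genes high in young. The 34 leukocyte markers summed to 1774 to 2910.3 against 1303 to 2001, with 0 of 18 tested called by limma and 6 at an unadjusted p below 0.05, a median log2 fold change of −0.62 and 15 of the 18 below 0. The 16 conjunctival and goblet cell markers summed to 29104 to 50734 against 25202 to 30372, with *Tff3* and *Clca1* at 0 in all 10 and 1 of 8 tested (*Krt4*) called. Neurofilament genes (*Nefl*, *Nefm*) and *Tyrp1*, a pigment cell gene, were also at 0 throughout. In bulk tissue, fewer cells of a type and less RNA per cell cannot be told apart.

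**Figure D1:**
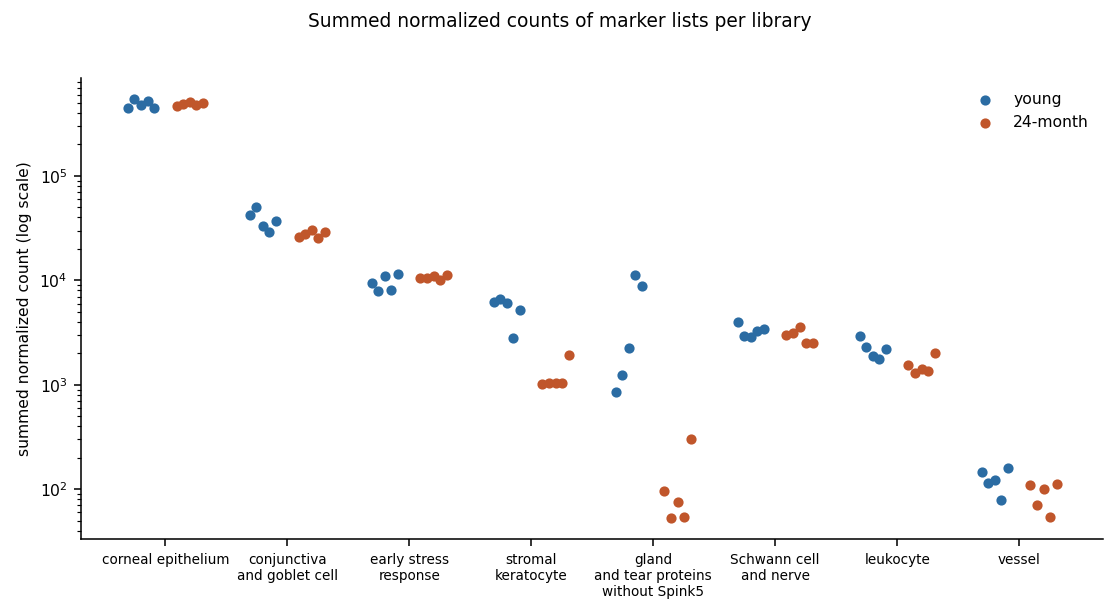
Summed normalized counts of marker lists (vertical axis, log scale) in each young and 24-month library, 1 point per library. The epithelial sums overlap, the keratocyte sums of the 24-month libraries (1010.2 to 1926) lie below all young ones (2785 to 6591), and gland and tear proteins without *Spink5* range from 845 to 11249.7 in young libraries.

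Of the 89 called genes, 71 have at least 1 promoter window in the RefSeq table for GRCm38.p6, 250 bases before to 50 bases after an annotated start. A few are shown because the letters of their upstream sequence can be read against the genes' known classes: an envelope gene, a retinoid enzyme, a hypoxia enzyme, a cell cycle inhibitor with more than 1 start and an interferon family gene. Capitals mark TGANTCA (the AP-1 consensus) in *Sprr1a* and *Aldh1a1*, TATAAA (the TATA box) in *Sprr1a*, ACGTG (the HIF core) in *Egln3*, GGGCGG (the GC box) in both *Cdkn2a* windows and the interferon response core, GAAA and GAAA with 2 bases between them, in *Ifit1bl1*. Each was searched on both strands.
Sprr1a, chr3:92485832-92486131, minus strand: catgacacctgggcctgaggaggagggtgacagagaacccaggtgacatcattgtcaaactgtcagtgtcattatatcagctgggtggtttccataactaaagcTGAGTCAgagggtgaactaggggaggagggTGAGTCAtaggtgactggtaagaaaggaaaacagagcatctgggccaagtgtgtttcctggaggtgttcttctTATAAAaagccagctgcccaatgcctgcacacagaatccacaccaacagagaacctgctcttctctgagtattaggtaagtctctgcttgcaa
Aldh1a1, chr19:20492333-20492632, plus strand: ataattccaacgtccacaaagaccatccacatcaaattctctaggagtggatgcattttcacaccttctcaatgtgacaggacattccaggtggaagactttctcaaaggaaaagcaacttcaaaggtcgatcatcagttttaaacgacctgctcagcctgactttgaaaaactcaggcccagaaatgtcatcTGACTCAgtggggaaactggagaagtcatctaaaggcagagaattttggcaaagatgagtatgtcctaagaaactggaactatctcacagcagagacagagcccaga
Egln3, chr12:54203825-54204124, minus strand: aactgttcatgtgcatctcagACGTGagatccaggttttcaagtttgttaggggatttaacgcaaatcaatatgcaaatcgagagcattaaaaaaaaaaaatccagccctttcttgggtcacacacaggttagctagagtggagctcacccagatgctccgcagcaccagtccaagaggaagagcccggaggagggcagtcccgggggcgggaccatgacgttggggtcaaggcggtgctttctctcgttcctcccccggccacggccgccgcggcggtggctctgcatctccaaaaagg
Cdkn2a distal start, chr4:89294570-89294869, minus strand: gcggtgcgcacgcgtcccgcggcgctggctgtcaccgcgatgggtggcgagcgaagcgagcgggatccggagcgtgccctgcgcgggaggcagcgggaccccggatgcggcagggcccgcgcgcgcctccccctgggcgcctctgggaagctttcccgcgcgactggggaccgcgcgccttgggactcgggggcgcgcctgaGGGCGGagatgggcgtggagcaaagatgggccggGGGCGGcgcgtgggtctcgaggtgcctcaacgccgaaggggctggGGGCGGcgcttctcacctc
Cdkn2a proximal start, chr4:89282143-89282442, minus strand: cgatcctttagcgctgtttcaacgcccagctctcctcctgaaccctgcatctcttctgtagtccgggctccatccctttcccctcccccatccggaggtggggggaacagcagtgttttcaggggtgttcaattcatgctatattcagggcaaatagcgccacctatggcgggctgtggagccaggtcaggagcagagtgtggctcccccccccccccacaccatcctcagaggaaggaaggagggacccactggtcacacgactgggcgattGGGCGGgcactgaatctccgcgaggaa
Ifit1bl1, chr19:34601919-34602218, minus strand: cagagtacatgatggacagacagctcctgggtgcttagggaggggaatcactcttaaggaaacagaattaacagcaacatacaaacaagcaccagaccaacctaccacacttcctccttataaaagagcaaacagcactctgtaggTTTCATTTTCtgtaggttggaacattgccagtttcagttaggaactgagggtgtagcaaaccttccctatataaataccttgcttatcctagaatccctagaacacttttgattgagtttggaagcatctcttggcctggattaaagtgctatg

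*Sprr1a* holds TGAGTCA 146 and 116 bases before its start and TATAAA 43 bases before it. *Aldh1a1* holds TGACTCA 57 bases before the start shown. Its other window, chr19:20601718-20602017, is not shown and holds no TGANTCA. The *Egln3* window holds ACGTG 229 bases before the start, and *Ifit1bl1* holds the interferon core, on the other strand, 104 bases before the start shown. *Sp100*, a called gene that interferons induce, was searched as well, and its windows, not shown, hold no interferon core. The distal *Cdkn2a* window holds GGGCGG 48 and 14 bases before its start and once after it, and the proximal window once after its start. Over all 32851 windows, TGANTCA occurred in 7.81%, TATAAA in 13.6%, ACGTG in 19.6%, GGGCGG in 35.7% and the interferon core in 3.44%. By gene, TGANTCA lay in a window of 4 of the 27 upregulated and 8 of the 44 downregulated genes with windows, against 6.26% of all tested genes with windows. TATAAA lay in 5 and 14 (against 8.69%), ACGTG in 6 and 11 (against 29.5%), GGGCGG in 15 and 13 (against 70.2%) and the interferon core in 1 and 2 (against 3.64%). No share was tested. These matches describe letters, and binding was not measured.

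Among keratins, the structural filaments by which epithelia are typed, the mucosal *Krt4* and the hair keratin *Krt75* fell, and the corneal keratins were not called. *Krt4*, a keratin of non-keratinized mucosae such as the conjunctiva (chromosome 15, 101918535 to 101924735 of GRCm38.p6), had 5337, 5281, 4751, 3170.3 and 4053 normalized counts in the young libraries and 1473, 1882, 1583, 1223 and 1563 at 24 months. Every 24-month library lay below every young one (log2 change −1.54, SE 0.168, limma adjusted p = 2.23e-06). *Krt75*, a keratin best known from the companion layer of hair follicles, had 272, 405, 119, 138 and 206 in young and 68.3, 41.5, 27.4, 22.6 and 137 in 24-month libraries. The highest 24-month library reached into the young range (log2 change −2.09, SE 0.424, limma adjusted p = 0.00935). *Krt12*, the defining corneal keratin, had 255490.0 ± 30298 (SD, n = 5) in young and 250918 ± 17589 in 24-month libraries, a difference of −0.02 on the log2 scale (95% interval −0.30 to 0.26). The basal *Krt5* was at 64476 ± 8999.5 and 62992 ± 1569, and *Krt15*, a basal and limbal keratin, at 65866 ± 10752 and 78476 ± 18684.

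Of 12 tested corneal, limbal and conjunctival keratins, 1 (*Krt4*) was called, 4 lay above 0 and the median log2 fold change was −0.09. *Krt13*, the usual partner of *Krt4*, had 32000.3 ± 7175 and 24604 ± 2055 (log2 −0.36, limma adjusted p = 0.377), *Krt19*, of simple and limbal epithelia, 1264 ± 384 and 895 ± 136, *Krt8*, of simple epithelia, 30.5 ± 16.05 and 51.4 ± 23.3, and *Krt7*, also of simple epithelia, 615 ± 141 and 381 ± 83.2 (log2 −0.68, unadjusted p = 0.00274, limma adjusted p = 0.155). None of these passed the test. The conjunctival marker list holds these keratins, and without *Krt4* it summed to 25934 to 45453 in young and 23979 to 28789 in 24-month libraries, ranges that overlap. Most of that sum is *Krt13*, so it says little about the amount of conjunctival or goblet cells. The median log2 fold change of its 8 tested members, *Krt4* included, was −0.41, with 5 below 0. Its part in the fall of *Krt4* was not tested.

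Cornified envelope genes encode proteins that are cross-linked beneath the membrane of surface cells under stress or in skin. *Sprr1a*, a small proline-rich precursor of that envelope (chromosome 3, 92483954 to 92485881), rose. *Sprr1a* had 85.5, 119.9, 251, 135 and 266 normalized counts in the young libraries and 599, 508, 511, 326 and 389.6 at 24 months, and the groups did not overlap (log2 change 1.54, SE 0.288, limma adjusted p = 0.00348). Of 26 tested stress keratins and envelope genes this was the 1 called, 17 lay above 0 and the median was 0.19, falling to 0.03 without young replicates 4 and 5. The abundant stress keratins *Krt6a* (69844 ± 11943 and 62116 ± 11431) and *Krt6b* (82398 ± 3579.6 and 93152 ± 15816) overlapped between the ages. *Krt17*, another wound keratin, had 602 ± 308 and 281 ± 109.9, and *Lce3c*, a late envelope gene, 7.46 ± 7.55 and 31.9 ± 22.7. Neither passed the test (limma adjusted p = 0.201 and 0.22).

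**Figure D2:**
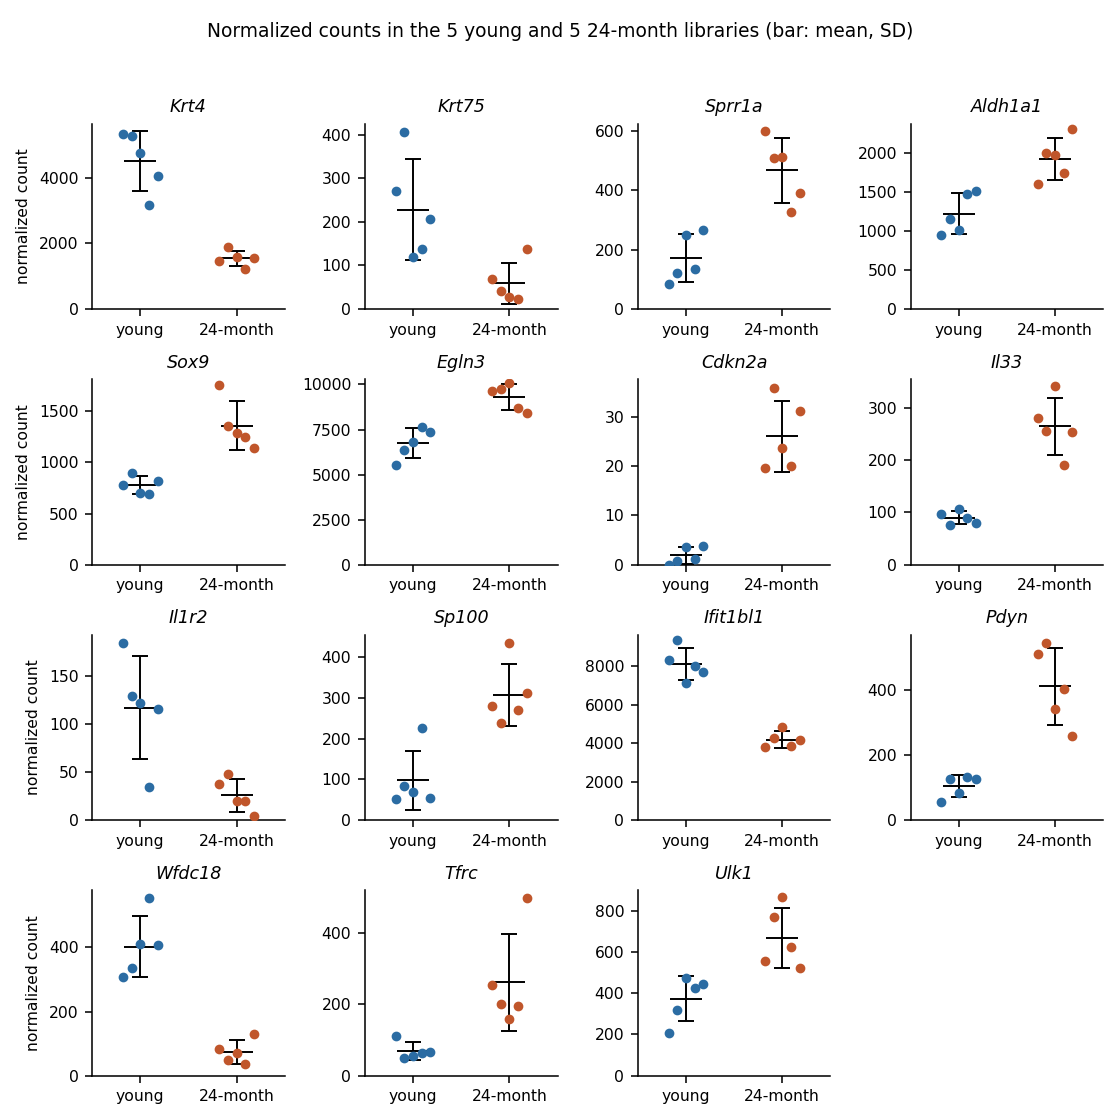
Normalized counts of 15 called genes (vertical axis, from 0) in each of the 5 young and 5 24-month libraries, with the mean and SD as bars. The ages do not overlap for 13 of the 15, while single libraries cross for *Krt75* and *Il1r2*.

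Retinoids, the active forms of vitamin A, keep the ocular surface from keratinizing. *Aldh1a1*, a retinaldehyde dehydrogenase that makes retinoic acid, had 953, 1149.6, 1005, 1477 and 1513 normalized counts in young against 1594, 1999, 1964, 1734 and 2302 in 24-month libraries. The ages did not overlap, but the highest young library came close to the lowest 24-month one (log2 change 0.67, SE 0.15, limma adjusted p = 0.0229). *Aldh1a1* lost its call in 6 of the 10 fits without 1 library, with a limma adjusted p of up to 0.0777 (without young replicate 1). *Cyp26b1*, which degrades retinoic acid, had 2008 ± 628 and 3979 ± 1314 and did not pass the test (limma adjusted p = 0.136). Over the list of crystallins and retinoid metabolism, 26 tested members had a median of 0.11 and 16 lay above 0. *Aldh3a1*, the main corneal crystallin, was at 82453 ± 17832 and 94726 ± 7518, and *Tkt*, transketolase, at 14903 ± 3688 and 11965 ± 704.

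Transcription factors that mark epithelial identity gave 1 call. *Sox9*, a factor of progenitor cells in several epithelia, was the 1 of 23 tested that rose. *Sox9* had 783, 898, 704, 688 and 819.6 normalized counts in the young libraries and 1762, 1360.3, 1289, 1249 and 1143 at 24 months, without overlap (log2 change 0.80, SE 0.132, limma adjusted p = 0.000796). *Tfap2b*, an AP-2 factor, was also higher in every 24-month library (183 ± 46.03 against 321 ± 88.2) but did not pass (limma adjusted p = 0.108). *Pax6*, which specifies the eye, was at 4702 ± 744 and 5253 ± 647, *Trp63*, a basal cell factor, at 553 ± 48.04 and 578 ± 60.8, and *Klf4*, a differentiation factor, at 18669.6 ± 5549 and 15529.7 ± 2661.

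Junctions and anchors gave no calls. Of 25 tested tight junction genes, 0 were called with limma and 3 had an unadjusted p below 0.05, against 1128 of all 11319 genes. *Cldn3*, a claudin, was lower in every 24-month library (536 ± 41.3 against 436 ± 18.8, limma adjusted p = 0.353). Of 25 tested desmosome and adherens junction genes, 0 were called with limma (5 with an unadjusted p below 0.05), and 20 lay below 0 with a median of −0.12. *Dsp*, desmoplakin, was at 30502 ± 5544 and 27799 ± 4309, and *Cdh1*, E-cadherin, at 3611 ± 489 and 4221 ± 734. For hemidesmosomes and the basement membrane, 0 of 24 were called (5 with an unadjusted p below 0.05), and *Col17a1*, the transmembrane anchor of basal cells, had 9644 ± 1214 and 8780.5 ± 300.4. For mucins and glycocalyx 0 of 16 were called (2 with an unadjusted p below 0.05), with *Muc4*, a membrane mucin, at 16388 ± 2711 and 13386 ± 1658. None of the lists without a call by limma, these 4 or those given below, had one with voom, a weighting of the log2 values for their read counts. Under the other alternatives, 1 call each appeared among heat shock chaperones without 24-month replicate 5, among respiratory chain genes without young replicate 3, among metalloproteinases and inhibitors with a pseudocount of 10, and among early stress response markers without young replicate 3 and with a replicate block.

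Adhesion genes outside the lists were among those that fell. *Cdh4*, R-cadherin, an adhesion protein best known from the nervous system and retina, had 172, 151, 123, 139.9 and 237 in young and 40.95, 61.8, 46.4, 82.7 and 68.7 in 24-month libraries (log2 change −1.45, SE 0.271, limma adjusted p = 0.00348). *Emb*, embigin, an immunoglobulin-family partner of monocarboxylate transporters, had 514, 913, 605, 677 and 759 normalized counts in young against 299, 328, 265, 419 and 338 in 24-month libraries (log2 change −1.06, SE 0.162, limma adjusted p = 0.000314). Neither gene overlapped between the ages. *Lpp*, a LIM protein of focal adhesions, fell by a smaller step, from 2507 ± 209 to 1758 ± 214 (log2 change −0.52, SE 0.106, limma adjusted p = 0.0105), as did *Filip1l*, a filamin-interacting protein homologue (367 ± 105 to 185 ± 15.1, log2 change −0.94, SE 0.215, limma adjusted p = 0.0257). *Lpp* and *Filip1l* lost their calls in 1 and 6 of the 10 fits without 1 library, in that order, with limma adjusted p of up to 0.0513 (without 24-month replicate 2) and 0.116 (without young replicate 2). *Cdh4* and *Filip1l* were not called without young replicates 4 and 5 (adjusted p = 0.0629 and 0.0702).

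*Kifc3* and *Klc1*, genes of kinesin motors, rose. *Kifc3*, a minus-end-directed kinesin found at epithelial adherens junctions (chromosome 8, 95099828 to 95202826), had 981, 1032, 967, 1001 and 1059.6 normalized counts in the young libraries and 1552, 1778, 1838, 1446 and 1373 at 24 months (log2 change 0.66, SE 0.115, limma adjusted p = 0.00189). *Klc1*, a kinesin light chain, had 1059, 1219, 1357, 1469.7 and 1332 normalized counts in young against 2030.2, 1998, 1952, 1944 and 1528 in 24-month libraries (log2 change 0.56, SE 0.136, limma adjusted p = 0.0463). Both were without overlap, and the lowest 24-month library of *Klc1*, replicate 5, stood apart from the other 4. *Cep290*, a protein of the ciliary base, fell from 1341 ± 114 to 974 ± 54.99 (log2 change −0.46, SE 0.107, limma adjusted p = 0.0299). *Iqgap2*, a scaffold that binds actin and calmodulin, went from 359 ± 68.1 to 627 ± 146 with overlap (log2 change 0.79, SE 0.195, limma adjusted p = 0.0472), and was not called with voom (voom adjusted p = 0.0638). *Klc1*, *Cep290* and *Iqgap2* lost their calls in 8, 6 and 8 of the 10 fits without 1 library, in that order, with limma adjusted p of up to 0.139 (without 24-month replicate 2), 0.0991 (without young replicate 5) and 0.177 (without 24-month replicate 3). They were not called without young replicates 4 and 5 (adjusted p = 0.0832 to 0.328), nor were *Cep290* and *Iqgap2* with the 10 libraries alone (adjusted p = 0.0708 and 0.0645).

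*Cdkn2a*, the locus of the cell cycle inhibitors p16Ink4a and p19Arf and a standard mark of senescent cells (chromosome 4, 89274473 to 89294619), rose from a level near 0. It had 0, 0.749, 3.65, 1.06 and 3.79 normalized counts in young libraries, or 0 to 4 reads, and 19.5, 35.8, 23.6, 20.01 and 31.1 at 24 months, or 20 to 44 reads. Every 24-month library exceeded every young one (log2 change 3.45, SE 0.558, limma adjusted p = 0.000613). The size of the log2 change rests on the pseudocount, being 1.59 with 10 in place of 1, and the gene was not tested with a minimum mean of 50. *Cdkn2a* reached the mean of 10 through the 24-month libraries alone. The transcripts from both starts shown above share their last exons, so reads from the 3′ end do not tell them apart. Of the other 23 tested genes of cell cycle arrest and senescence none was called with limma, 2 had an unadjusted p below 0.05 and the list's median was 0.08. *Cdkn1a*, the p21 inhibitor, had 3238 ± 373 and 3602 ± 631 (log2 difference 0.14, 95% interval −0.15 to 0.44), and *Cdkn2b*, the neighbour of *Cdkn2a*, 268 ± 53.1 and 289 ± 59.2.

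Of the proliferation list, none of 43 tested genes was called with limma, 4 had an unadjusted p below 0.05, 29 lay above 0 and the median was 0.16. *Mki67*, a marker of cycling cells, had 1149.6 ± 375 and 927 ± 154, and *Ccnd1*, cyclin D1, 4175 ± 667 and 5521 ± 685 (limma adjusted p = 0.156).

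Genes of insulin and growth factor handling were called in both directions. *Ide*, the insulin-degrading enzyme (chromosome 19, 37268743 to 37334544), had 365, 717, 324, 380.4 and 422 in young and 759.6, 832, 841, 935 and 910.1 in 24-month libraries. Young replicate 2 lay far above the other young libraries and just below the 24-month range (log2 change 1.01, SE 0.183, limma adjusted p = 0.00261). Across all 20 libraries *Ide* took separate levels, given under Other observations. The segment that holds *Ide* is known to vary in copy number among C57BL/6J mice, and copy number was not tested. *Igfbp2*, a binding protein of insulin-like growth factors, had 182, 175, 299, 168 and 169 normalized counts in young against 75.1, 41.5, 68.1, 28.7 and 116 in 24-month libraries (log2 change −1.70, SE 0.354, limma adjusted p = 0.0125). *Igfbp5*, its neighbour on chromosome 1 at a distance of 5591 bases, had 1067, 1138, 1014, 815 and 846 normalized counts in young against 658, 558, 769, 587 and 707 in 24-month libraries (log2 change −0.57, SE 0.138, limma adjusted p = 0.0403). Both binding proteins were lower in every 24-month library than in any young one. *Igfbp2* and *Igfbp5* lost their calls in 2 and 6 of the 10 fits without 1 library, in that order, with limma adjusted p of up to 0.0572 (without 24-month replicate 4) and 0.157 (without 24-month replicate 2). *Ide* and *Igfbp2* were not called without young replicates 4 and 5 (adjusted p = 0.0515 and 0.0625), nor was *Igfbp5* with the 10 libraries alone (adjusted p = 0.0708). *Egfr*, the receptor that drives corneal wound closure, was at 1746 ± 219 and 1646 ± 139. Of 30 tested wound growth factor genes 3 were called, and the median was −0.04.

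*Apela*, *Igf2bp1* and *Ddx43*, genes best known from embryos or the germ line, fell. *Apela*, the peptide ligand of the apelin receptor, had 155, 99.7, 78.5, 45.6 and 40.8 in the young group and 0, 4.88, 0.946, 5.22 and 0.941 at 24 months (log2 change −4.81, SE 0.69, limma adjusted p = 0.000136). *Igf2bp1*, a fetal RNA-binding protein, had 24.1, 33.7, 15.5, 16.95 and 28.5 normalized counts in young libraries and 0 reads in every 24-month library. With 3 reads allowed per library, it was at least 8.71-fold lower, a limit that covers counting error only. *Meg3*, an imprinted non-coding RNA, had 35.1, 61.5, 36.5, 11.7 and 45.5 normalized counts in young against 0.975, 0, 3.78, 1.74 and 0.941 in 24-month libraries (log2 change −3.98, SE 0.934, limma adjusted p = 0.0302) and was not called with voom (voom adjusted p = 0.0896). Its highest 24-month library stood below its lowest young one. *Apela*, *Igf2bp1* and *Meg3* were at or near 0 at 24 months and reached the mean of 10 through the young libraries alone. A gene this low at 24 months could be tested only if it was high in young. *Ddx43*, an RNA helicase of the germ line, had 90.98, 88.4, 88.6, 72.1 and 91.1 normalized counts in young against 28.3, 29.3, 17.97, 29.6 and 32.9 in 24-month libraries (log2 change −1.63, SE 0.328, limma adjusted p = 0.0086). *Hmgn5*, a nucleosome-binding protein, went from 1037 ± 241 to 621 ± 89.2 (log2 change −0.72, SE 0.158, limma adjusted p = 0.0184). *Igf2bp1*, *Meg3* and *Hmgn5* lost their calls in 9, 8 and 3 of the 10 fits without 1 library, in that order, with limma adjusted p of up to 0.103 (without young replicate 5), 0.117 (without young replicate 2) and 0.0798 (without 24-month replicate 3). *Igf2bp1*, *Meg3*, *Ddx43* and *Hmgn5* were not called without young replicates 4 and 5 (adjusted p = 0.0555 to 0.0981).

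Of the interleukin 1 family, the alarmin *Il33* rose and the decoy receptor *Il1r2* fell. *Il33*, kept in epithelial nuclei and released on damage, had 96.5, 75.7, 106, 90.1 and 79.7 normalized counts in young against 282, 256, 342, 191 and 254 in 24-month libraries (log2 change 1.54, SE 0.281, limma adjusted p = 0.00268). *Il1r2*, the decoy receptor that binds interleukin-1 without signalling, had 184, 129, 122, 34.97 and 116 normalized counts in young against 38.03, 47.97, 19.9, 20.01 and 3.76 in 24-month libraries (log2 change −2.32, SE 0.518, limma adjusted p = 0.0217). Young replicate 4 was the lowest young library of *Il1r2* and lay within the 24-month range. Of 14 tested members of the family these were the 2 called, and *Il1rn*, the receptor antagonist, had 310.5 ± 46.2 and 402 ± 40.7 (limma adjusted p = 0.359). *Ptpn22*, a phosphatase that restrains immune receptor signalling, had 72.3, 91.4, 71.2, 58.3 and 93.9 normalized counts in young against 227, 209.8, 138, 254 and 296 in 24-month libraries (log2 change 1.51, SE 0.241, limma adjusted p = 0.000531). *Bcl2l15*, of the BCL2 family, lies 1957 bases from *Ptpn22* on chromosome 3 and rose too, from 82.8 ± 20.8 to 229 ± 58.03 (log2 change 1.46, SE 0.222, limma adjusted p = 0.000302). The leukocyte marker sum was lower in 4 of the 5 24-month libraries than in any young one, 24-month replicate 5 lying within the young range, and its part was not tested. *Il1r2* lost its call in 7 of the 10 fits without 1 library, with a limma adjusted p of up to 0.0838 (without young replicate 1). It was not called with the 10 libraries alone (adjusted p = 0.0671).

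Of genes tied to interferons, *Sp100* rose and *Ifit1bl1* fell. *Sp100*, a component of nuclear bodies that interferons induce, had 51.5, 83.9, 69.4, 227 and 55.02 normalized counts in young against 281, 237, 435, 272 and 313 in 24-month libraries, with young replicate 4 far above the other young libraries (log2 change 1.86, SE 0.296, limma adjusted p = 0.000513). *Ifit1bl1*, of the interferon-induced tetratricopeptide family, fell without overlap from 8319, 9364, 7131, 8025 and 7713 to 3797, 4262, 4858, 3832 and 4179 (log2 change −0.95, SE 0.126, limma adjusted p = 4.51e-05). Of 43 tested interferon-stimulated genes in the list, which does not hold *Ifit1bl1*, 1 was called and the median was −0.03. The general response gene *Isg15* was at 251 ± 69.8 and 250.5 ± 74.03. Reads of the *Ifit* family may be shared among its near copies.

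*Chit1*, *Clec2g*, *Wfdc18* and *Stfa1*, genes of defence at surfaces, fell. *Chit1*, a chitin-cleaving enzyme, had 700.5, 1147, 682, 803 and 829 normalized counts in young against 356, 393, 366, 345 and 296 in 24-month libraries (log2 change −1.22, SE 0.155, limma adjusted p = 3.07e-05). *Clec2g*, a C-type lectin-like gene, had 385, 499, 388, 450.3 and 499 normalized counts in young against 131, 181, 167, 156 and 201 in 24-month libraries (log2 change −1.41, SE 0.219, limma adjusted p = 0.000361). *Wfdc18*, a whey acidic protein family member, had 308, 336, 410.04, 553 and 407 normalized counts in young against 82.9, 49.6, 70.9, 36.5 and 131 in 24-month libraries (log2 change −2.53, SE 0.446, limma adjusted p = 0.00191). None of these overlapped between the ages. *Stfa1*, a cysteine protease inhibitor with near copies in the genome, went from 707 ± 101 to 442 ± 139 with overlap (log2 change −0.72, SE 0.157, limma adjusted p = 0.0187). *Stfa1* lost its call in 4 of the 10 fits without 1 library, with a limma adjusted p of up to 0.0805 (without 24-month replicate 3). *Wfdc18* and *Stfa1* were not called without young replicates 4 and 5 (adjusted p = 0.0578 and 0.146), nor was *Stfa1* with the 10 libraries alone (adjusted p = 0.0872). Of 23 tested antimicrobial and sensing genes 1 (*Wfdc18*, which is also on the gland and tear protein list below) was called. The abundant *Defb1*, a beta defensin, was at 2229.5 ± 342 and 2274 ± 575. None of 18 tested genes of antigen presentation by major histocompatibility complex class I was called with limma, and 1 had an unadjusted p below 0.05.

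**Figure D3:**
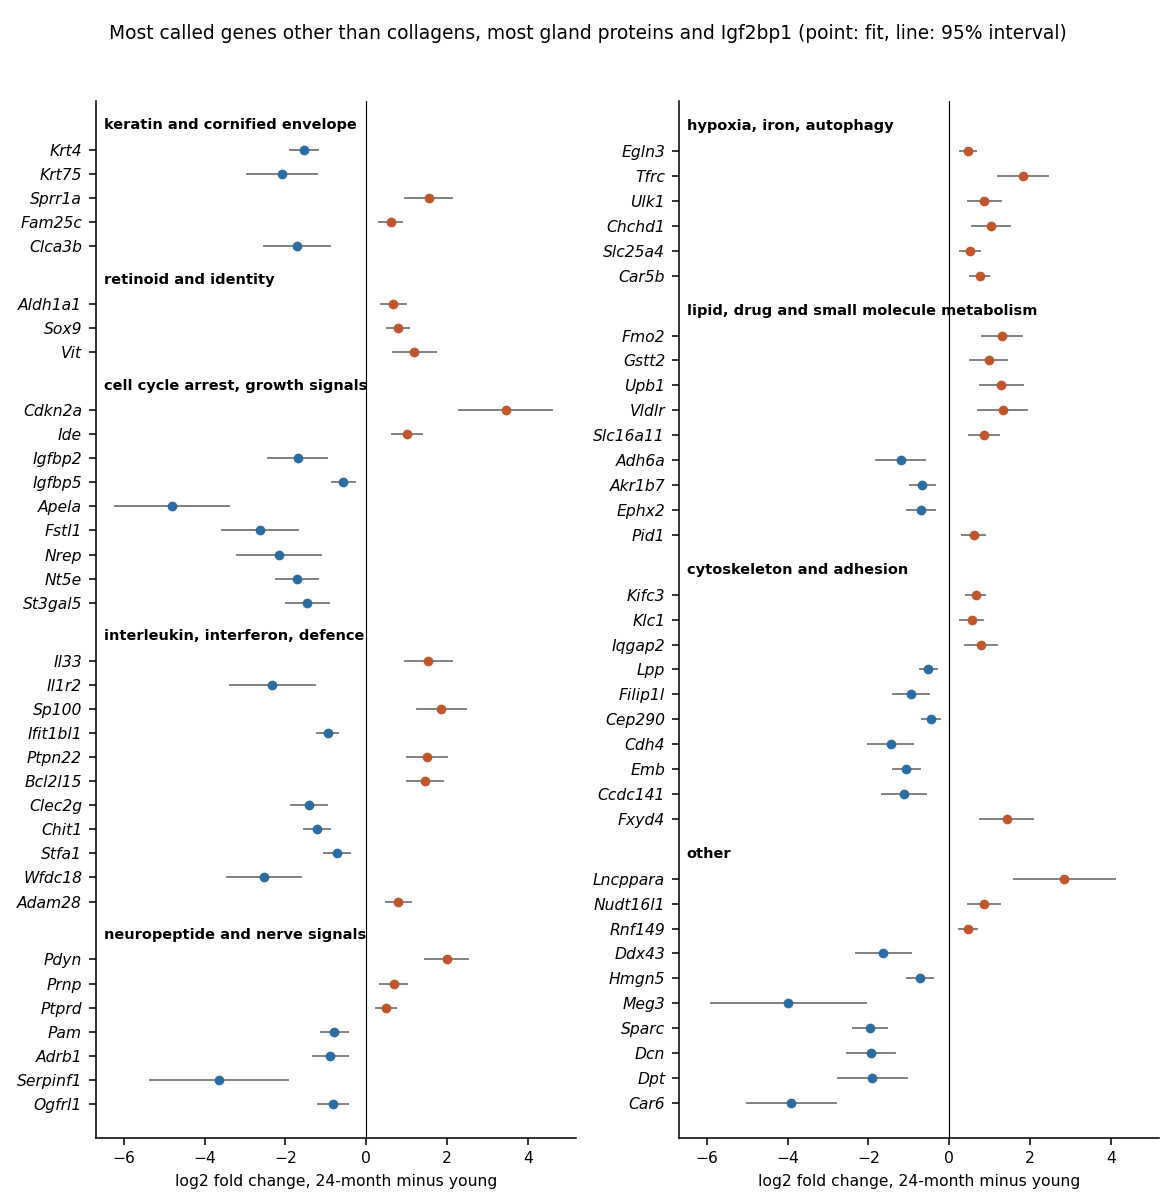
Log2 fold change, 24-month minus young (horizontal axis), of most called genes by function, without collagens, most gland proteins and *Igf2bp1*, with 95% intervals as lines, grouped by function. Points right of 0 were higher at 24 months, among them *Cdkn2a* at 3.45, and points left of 0 lower.

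Genes of neuropeptides and of signals to nerves gave 2 calls among 41 tested. *Pdyn*, prodynorphin, the precursor of opioid peptides, had 54.8, 127, 84.02, 131 and 126 normalized counts in young against 511, 547, 341, 405 and 259 in 24-month libraries (log2 change 1.99, SE 0.257, limma adjusted p = 3.61e-05). *Serpinf1*, pigment epithelium-derived factor, which is also a keratocyte marker, had 40.6, 60.7, 23.7, 23.3 and 42.7 normalized counts in young against 0.975, 6.5, 0.946, 0 and 6.59 in 24-month libraries (log2 change −3.65, SE 0.837, limma adjusted p = 0.0282) and was not called with voom (voom adjusted p = 0.104). *Serpinf1* reached the mean of 10 through the young libraries alone. The keratocyte sum moved with *Serpinf1*, and its part was not tested. *Pam*, the enzyme that amidates the ends of neuropeptides, fell from 575 ± 98.4 to 336 ± 72.4 (log2 change −0.79, SE 0.164, limma adjusted p = 0.0125). *Adrb1*, the beta-1 adrenergic receptor, had 359.5, 317, 324, 264 and 287 normalized counts in young against 260.4, 142, 158, 208 and 105 in 24-month libraries (log2 change −0.89, SE 0.207, limma adjusted p = 0.0299). *Prnp*, the prion protein, rose from 257 ± 65.4 to 407 ± 66.1 with overlap (log2 change 0.68, SE 0.164, limma adjusted p = 0.0378). *Ptprd*, a receptor phosphatase of synapses, went from 621 ± 55.9 to 882 ± 117 (log2 change 0.50, SE 0.122, limma adjusted p = 0.0469) and was not called with voom (voom adjusted p = 0.063). *Serpinf1*, *Pam*, *Adrb1*, *Prnp* and *Ptprd* each lost their calls in 1 to 8 of the 10 fits without 1 library, with a limma adjusted p of up to 0.172 (*Ptprd* without 24-month replicate 3). They were not called without young replicates 4 and 5 (adjusted p = 0.0786 to 0.239), nor were *Adrb1*, *Prnp* and *Ptprd* with the 10 libraries alone (adjusted p = 0.0766 to 0.135).

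*Nt5e* and *St3gal5*, enzymes that shape signals at the cell surface, fell. *Nt5e*, CD73, which makes adenosine from AMP, had 731, 619, 754, 344 and 697 normalized counts in young against 156, 211, 109, 198 and 293 in 24-month libraries (log2 change −1.72, SE 0.257, limma adjusted p = 0.000245). *St3gal5*, the synthase of the ganglioside GM3, had 273, 264, 319, 208 and 251 normalized counts in young against 59.5, 96.8, 101, 136 and 94.1 in 24-month libraries (log2 change −1.46, SE 0.26, limma adjusted p = 0.00225). Both were without overlap. *Adam28*, a membrane metalloproteinase, rose with a small spread, from 345, 408, 377, 411 and 418 to 752, 727, 625, 711 and 602 (log2 change 0.80, SE 0.146, limma adjusted p = 0.00268).

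In oxygen sensing, *Egln3*, a prolyl hydroxylase that marks HIF for degradation and is itself a HIF target, rose from 5537, 6375, 6789.9, 7658 and 7345 to 9635, 9727, 10068, 8672 and 8406 (log2 change 0.47, SE 0.0983, limma adjusted p = 0.0125). The ages did not overlap. Of 34 tested HIF-1 targets and glycolysis genes it was the 1 called, while 27 lay above 0 (79.4%, against 50.7% of all genes) and the median was 0.27, the highest of the function lists. The lowest member was *Pgk1* at −0.67. The list was chosen with earlier results of these data known, and its share was not tested. *Egln3* lost its call in 1 of the 10 fits without 1 library, with a limma adjusted p of up to 0.0523 (without 24-month replicate 3). It was not called with the 10 libraries alone (adjusted p = 0.0671). *Egln1*, the main HIF hydroxylase (527 ± 107 and 657 ± 71.96), and *Bnip3*, a mitophagy receptor (13.3 ± 6.92 and 38.8 ± 18.5), were higher in every 24-month library but did not pass (limma adjusted p = 0.402 and 0.366). *Epas1*, HIF-2 alpha, was at 4589.8 ± 839 and 4780.4 ± 541.

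Iron uptake and autophagy had 1 call each. *Tfrc*, the transferrin receptor, had 112, 50.2, 53.9, 64.6 and 67.4 in young and 255, 200.03, 159, 194 and 497 in 24-month libraries (log2 change 1.83, SE 0.303, limma adjusted p = 0.0008). All 24-month values exceeded the young ones, and replicate 5 was by far the highest. The ferritin gene *Fth1* was at 12392 ± 2967 and 11462 ± 1517. *Ulk1*, the kinase that starts autophagy, had 209, 318, 473, 428 and 444 normalized counts in young against 558, 772, 868, 626 and 524 in 24-month libraries (log2 change 0.87, SE 0.201, limma adjusted p = 0.0288). *Rb1cc1*, a partner of *Ulk1*, lay lower in every 24-month library (2532 ± 150.3 against 2101 ± 93.6, limma adjusted p = 0.239), and *Map1lc3b*, an autophagosome protein, was at 1479 ± 221 and 1485 ± 241. Of 38 tested autophagy genes 26 lay above 0, with a median of 0.07. *Ulk1* lost its call in 5 of the 10 fits without 1 library, with a limma adjusted p of up to 0.123 (without 24-month replicate 3). It was not called with the 10 libraries alone (adjusted p = 0.0741).

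*Car5b*, *Slc25a4* and *Chchd1*, whose products act in mitochondria, rose, while the respiratory chain list gave no call. *Car5b*, a mitochondrial carbonic anhydrase, had 703, 659.5, 888, 675 and 700.1 normalized counts in young against 1082, 1253, 1309, 1099 and 1361 in 24-month libraries (log2 change 0.75, SE 0.116, limma adjusted p = 0.000314). *Slc25a4*, the ADP/ATP carrier, had 1719 ± 235 and 2458 ± 336 (log2 change 0.52, SE 0.124, limma adjusted p = 0.0374), and *Chchd1*, of the mitochondrial ribosome, 117 ± 26.8 and 235 ± 28.3 (log2 change 1.03, SE 0.23, limma adjusted p = 0.022). None of 76 tested nuclear genes of the respiratory chain was called with limma (2 with an unadjusted p below 0.05), and their median was −0.0052. Cytosolic ribosomal proteins (0 of 78 called, 4 with an unadjusted p below 0.05, median 0.07), proteasome subunits (0 of 34 called, 2 below 0.05, median −0.11) and heat shock chaperones (0 of 29 called, 4 below 0.05, median −0.02) gave no call by limma either. *Slc25a4* and *Chchd1* lost their calls in 8 and 5 of the 10 fits without 1 library, in that order, with limma adjusted p of up to 0.119 (without 24-month replicate 3) and 0.0931 (without young replicate 2). They were not called without young replicates 4 and 5 (adjusted p = 0.136 and 0.0955), nor was *Slc25a4* with the 10 libraries alone (adjusted p = 0.0789).

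Detoxifying and lipid enzymes were called in both directions. *Fmo2*, a flavin monooxygenase, had 206, 102, 76.7, 129 and 166 normalized counts in young against 365, 348, 415, 301 and 199.5 in 24-month libraries, with the lowest 24-month library just inside the young range (log2 change 1.30, SE 0.242, limma adjusted p = 0.00346). *Upb1*, the last enzyme of pyrimidine breakdown, had 72.3, 86.9, 29.2, 68.9 and 90.1 normalized counts in young against 143, 154, 176, 208 and 129.9 in 24-month libraries (log2 change 1.29, SE 0.259, limma adjusted p = 0.00845). *Gstt2*, a glutathione transferase, rose from 64.5 ± 15.1 to 125 ± 7.92 (log2 change 0.98, SE 0.226, limma adjusted p = 0.0288). Falls were seen for *Adh6a*, an alcohol dehydrogenase (302 ± 89.7 to 139 ± 70.2, log2 change −1.20, SE 0.296, limma adjusted p = 0.0477), *Akr1b7*, an aldo-keto reductase (1294 ± 273 to 811 ± 138, log2 change −0.67, SE 0.153, limma adjusted p = 0.0286), and *Ephx2*, which hydrolyses lipid epoxides (322 ± 41.1 to 198 ± 23.7, log2 change −0.70, SE 0.173, limma adjusted p = 0.0484). *Gstt2*, *Adh6a*, *Akr1b7* and *Ephx2* each lost their calls in 5 to 9 of the 10 fits without 1 library, with a limma adjusted p of up to 0.151 (*Adh6a* without 24-month replicate 1). *Gstt2*, *Adh6a* and *Ephx2* were not called without young replicates 4 and 5 (adjusted p = 0.131 to 0.294), nor were *Gstt2*, *Adh6a*, *Akr1b7* and *Ephx2* with the 10 libraries alone (adjusted p = 0.0548 to 0.0789).

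*Vldlr* and *Slc16a11*, of lipid uptake and monocarboxylate transport, rose. *Vldlr*, a lipoprotein receptor, had 83.3, 102, 58.4, 45.6 and 39.8 normalized counts in young against 199.9, 146, 184, 159 and 111 in 24-month libraries (log2 change 1.33, SE 0.295, limma adjusted p = 0.0205) and was not called with voom (voom adjusted p = 0.0668). *Slc16a11*, of the monocarboxylate transporter family, had 551, 962, 953, 1044 and 647 normalized counts in young against 1782, 1649, 1416, 1417 and 1137 in 24-month libraries (log2 change 0.86, SE 0.183, limma adjusted p = 0.0148). *Gsto1*, a glutathione transferase that is among the most read genes of the tissue, was at 254509 ± 41400.1 and 244025 ± 25462. Of 46 tested oxidant and xenobiotic defence genes 1 was called, and of 33 fatty acid and lipid mediator genes 1, with 23 of the 33 below 0 and a median of −0.11. *Pid1*, which dampens insulin signalling, rose from 701 ± 152 to 1049 ± 91.7 (log2 change 0.60, SE 0.14, limma adjusted p = 0.0288). *Vldlr*, *Slc16a11* and *Pid1* lost their calls in 5, 4 and 6 of the 10 fits without 1 library, in that order, with limma adjusted p of up to 0.0789 (without young replicate 5), 0.0621 (without young replicate 5) and 0.11 (without 24-month replicate 3). They were not called without young replicates 4 and 5 (adjusted p = 0.0629 to 0.278), nor was *Pid1* with the 10 libraries alone (adjusted p = 0.0698).

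Ion and water transport gave 1 call among 23. *Fxyd4*, a small regulator of the sodium pump, had 61.4, 22.5, 74.9, 31.8 and 46.5 normalized counts in young against 137, 78.9, 187, 104 and 108 in 24-month libraries (log2 change 1.42, SE 0.321, limma adjusted p = 0.0238) and was not called with voom (voom adjusted p = 0.0755). *Fxyd4* lost its call in 5 of the 10 fits without 1 library, with a limma adjusted p of up to 0.107 (without 24-month replicate 3). It was not called without young replicates 4 and 5 (adjusted p = 0.176) or with the 10 libraries alone (adjusted p = 0.0645). *Atp1b1*, a sodium pump subunit (141 ± 20.7 and 225 ± 34.7), was higher, and *Clic4*, a chloride channel family protein (532 ± 44.9 and 367 ± 83.3), lower in every 24-month library, and neither passed (limma adjusted p = 0.121 and 0.216). *Aqp5*, the water channel of the corneal epithelium, was at 16745 ± 1891 and 17112 ± 2443. Notch, Wnt, TGF beta and BMP signalling gave 0 calls with limma among 23, 25 and 27 tested genes, with 2, 3 and 3 at an unadjusted p below 0.05. The circadian clock gave 0 among 23 (5 below 0.05).

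**Figure D4:**
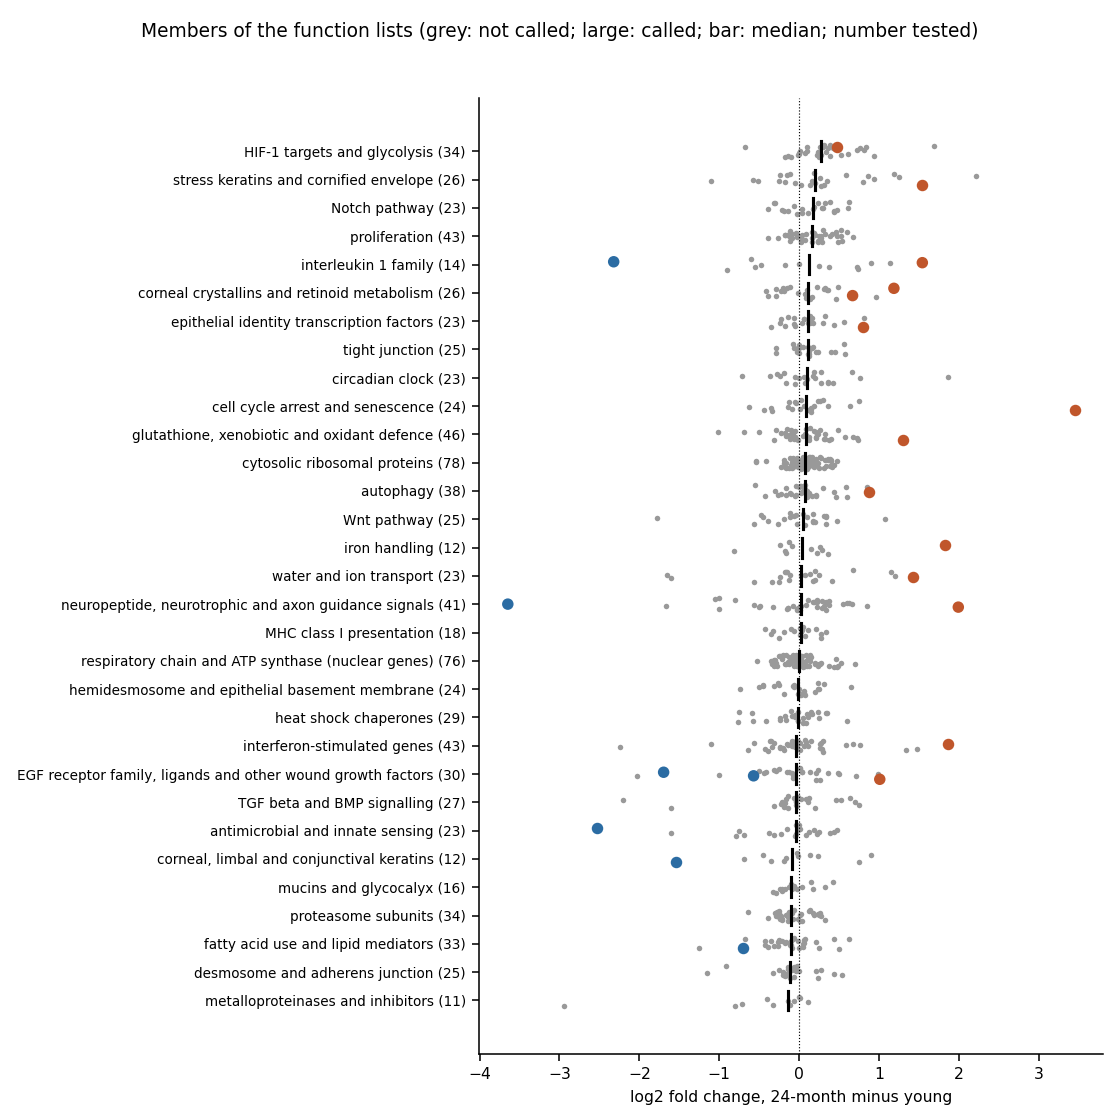
Log2 fold change, 24-month minus young (horizontal axis), of every tested member of the function lists other than gland and tear proteins, with the number tested beside each name, called members as large points and the median as a bar. Medians run from −0.14 (metalloproteinases) to 0.27 (HIF-1 targets and glycolysis), and most lists hold 0, 1 or 2 called members.

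Genes of glands and tears had the lowest list median, −5.15, with their highest values in young replicates 4 and 5. Only 13 of the 35 gland genes with values reached the mean of 10 and were tested. Members near 0 at 24 months, such as *Pip* and *Mup4*, reached it through the young libraries alone, so the median and the number of falls lean toward genes high in young. The gland list without *Spink5*, a protease inhibitor of skin left out after its values were seen, summed to 845, 1247, 2256, 11249.7 and 8813 normalized counts in the young libraries and 95.6, 52.9, 75.7, 53.95 and 301 at 24 months. Young replicates 4 and 5 held 80.2% of the young reads. *Obp1a*, an odorant-binding lipocalin, had 328, 549, 1183, 7831 and 1724 normalized counts in young against 9.75, 0, 0, 6.96 and 45.2 in 24-month libraries (log2 change −7.88, SE 1.02, limma adjusted p = 3.61e-05). *Pip*, prolactin-induced protein, had 13.2, 40.5, 67.6, 392 and 799 normalized counts in young against 0, 0, 0, 0 and 1.88 in 24-month libraries. *Car6*, the secreted carbonic anhydrase of saliva and tears, had 285, 253, 548, 2626 and 185 normalized counts in young against 18.5, 17.9, 29.3, 32.2 and 66.8 in 24-month libraries (log2 change −3.91, SE 0.535, limma adjusted p = 7.02e-05). *Mup4*, a lacrimal lipocalin, had no read at 24 months against 36.2, 92.2, 347, 1522 and 263 in young libraries. With 3 reads allowed per library, it was at least 166-fold lower. This was 67.7-fold without young replicate 4 and 58.1-fold without young replicates 4 and 5. These limits cover counting error only, and *Mup4* was not called with voom (voom adjusted p = 0.386).

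Of 13 tested gland genes 9 were downregulated (*Obp1a*, *Obp1b*, *Mup4*, *Pip*, *Scgb2b2*, *Scgb2b24*, *Scgb1b2*, *Lcn11* and *Wfdc18*). Without young replicates 4 and 5 the count was 2 (*Obp1a* and *Mup4*), and with voom it was 1 (*Wfdc18*). For *Obp1a* the voom adjusted p was 0.265 and for *Pip* 0.429, while *Car6* was called in both settings. These lipocalins and secretoglobins have near copies in the genome, among which the counting may share reads. The same holds for *Gm14743*, *Gm5938* and *Mucl2*, which were called down outside the list and not with voom (adjusted p = 0.231, 0.33 and 0.339).

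*Sparc*, *Dcn* and *Fstl1*, matrix genes other than collagens, fell. *Sparc*, a matrix glycoprotein, had 1369, 867, 878, 476 and 822 normalized counts in young against 215, 276, 191, 178 and 217 in 24-month libraries (log2 change −1.97, SE 0.206, limma adjusted p = 1.2e-06). *Dcn*, decorin, had 1089, 1309, 1048, 619 and 1046 normalized counts in young against 225, 155, 284, 199 and 571 in 24-month libraries (log2 change −1.94, SE 0.292, limma adjusted p = 0.000257). *Fstl1*, a secreted follistatin-like protein, had 179, 236, 247, 90.1 and 146 normalized counts in young against 45.8, 37.4, 19.9, 6.96 and 49.9 in 24-month libraries (log2 change −2.64, SE 0.458, limma adjusted p = 0.00162). None overlapped between the ages. For *Dcn* 24-month replicate 5 was the highest of its age, as it was for the keratocyte sum, which includes *Dcn*. *Mmp2*, a gelatinase, had 61.4, 36.7, 77.6, 26.5 and 27.5 normalized counts in young against 0, 12.2, 3.78, 6.09 and 11.3 in 24-month libraries and did not pass (limma adjusted p = 0.192). *Vit*, a matrix protein, went the other way, from 81.2 ± 30.5 to 179.7 ± 40.96 (log2 change 1.19, SE 0.259, limma adjusted p = 0.0184). *Sparc*, *Dcn* and *Mmp2* are on the keratocyte list, whose sum moved with them in part because it includes them. The part of keratocytes was not tested. The other called matrix genes, *Dpt* and 6 collagen genes, fell as well. *Vit*, *Dpt* and *Col6a1* lost their calls in 5, 6 and 7 of the 10 fits without 1 library, in that order, with limma adjusted p of up to 0.0748 (without young replicate 4), 0.086 (without young replicate 1) and 0.124 (without 24-month replicate 2). *Vit* and *Col6a1* were not called without young replicates 4 and 5 (adjusted p = 0.177 and 0.0629), nor was *Vit* with the 10 libraries alone (adjusted p = 0.0548). *Col6a1* was not called by voom either (voom adjusted p = 0.0802).

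Further genes were called whose group is not described above. *Fam25c*, *Rnf149*, a ubiquitin ligase gene, *Nudt16l1* and *Lncppara*, a non-coding RNA, were upregulated, and *Clca3b*, of the calcium-activated chloride channel regulators, *Nrep*, *Ogfrl1* and *Ccdc141* downregulated. *Rnf149* had 1039 ± 55.3 and 1438 ± 139.9 (log2 change 0.46, SE 0.108, limma adjusted p = 0.0288), and *Lncppara* 12.3 ± 17.4 and 48.97 ± 17.9, with overlap and no call by voom (voom adjusted p = 0.0799). *Fam25c*, *Rnf149*, *Nudt16l1*, *Clca3b*, *Nrep*, *Ogfrl1*, *Ccdc141* and *Lncppara* each lost their calls in 3 to 8 of the 10 fits without 1 library, with a limma adjusted p of up to 0.134 (*Nrep* without 24-month replicate 4). *Fam25c*, *Rnf149*, *Nudt16l1*, *Nrep*, *Ogfrl1*, *Ccdc141* and *Lncppara* were not called without young replicates 4 and 5 (adjusted p = 0.0529 to 0.239), nor were *Fam25c*, *Rnf149*, *Clca3b*, *Nrep* and *Lncppara* with the 10 libraries alone (adjusted p = 0.053 to 0.103).

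The called genes were then placed among all 4 ages. All 35 upregulated genes were above the young mean at 12 and at 18 months on the log2 scale, and of the 54 downregulated 53 were below it at 12 and 54 at 18 months. These comparisons share the young libraries. A direct test called 4 of the 89 between 24 and 12 months, where 0.194% of all genes tested were called. Between 24 and 18 months limma called 0 of the 89 and 0 of all genes, and 18 of the 89 had an unadjusted p below 0.05. Both contrasts use the 24-month libraries by which the 89 were chosen, so the shares of the 89 cannot be set against those of all genes. In each of the 5 fits without 1 of the 24-month libraries, 0 of the called genes differed between 24 and 12 months.

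Among the 4 genes were *Ide*, *Kifc3* and *Hmgn5*. *Kifc3* had 889.8, 1197, 1029.7, 1071 and 1147 at 12 months and 1227, 871, 987, 1082 and 1178 at 18 months, all below the lowest 24-month value, and differed between 24 and 12 months by 0.58 on the log2 scale (limma adjusted p = 0.0306). *Klc1* had log2 differences from young of 0.03 at 12, 0.03 at 18 and 0.56 at 24 months, but was not called against 12 months (limma adjusted p = 0.0946). *Pdyn* and *Upb1* were already at 1.89 and 1.51 above the young group at 12 months. *Sprr1a* was at 0.34 at 12 and 1.07 at 18 months.

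**Figure D5:**
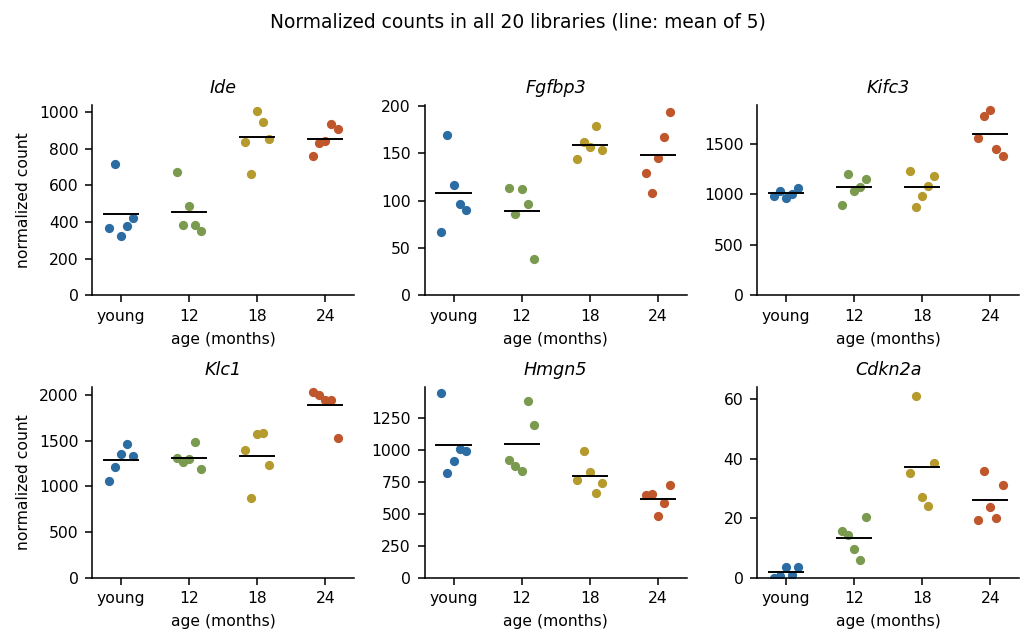
Normalized counts (vertical axis, from 0) of 6 genes in all 20 libraries by age, with the mean of 5 libraries as a line. All 5 24-month libraries of *Kifc3* lie above every other library, *Cdkn2a* is lower in each young library than at any other age, and *Ide* is high in 1 young and 1 12-month library as well as at 18 and 24 months.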

How the data were processed

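Total RNA of the corneal epithelium was sequenced as 3′-end, oligo-dT primed libraries. Per the study's methods and the submitters' processing notes, reads were trimmed (cutadapt), checked (FastQC), aligned to GRCm38 (STAR), counted per gene (HTSeq) and scaled by relative log expression (DESeq2), with versions not given in the sources used here. The deposited values are log2 (normalized count + 1), and 2 to the power of the value minus 1 returned whole reads within a tolerance of 0.01. Columns with the authors' own fold changes and p-values were not used.

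Groups came from the age labels. All 20 libraries were fitted with limma (trend) on the deposited log2 values, with Benjamini-Hochberg adjustment over the 11319 genes with a mean of at least 10. The pseudocount of 1 understates changes of low genes. Reads per library limit precision, and floors (3 reads per library) cover counting error only. Because reads come from 3′ ends, levels are not compared between genes by length. Scripts were tested on simulated data. Alternatives were voom on the recovered reads, other filters, thresholds, pseudocounts and scaling, a replicate block and libraries left out. Members and lists were chosen with earlier results of these data known. Named were the 12 largest rises and 12 largest falls without overlap (collagens and unnamed gene models aside), called and most abundant list members, and other called genes. Promoter sequences are RefSeq's, matched by gene ID. Of the called genes, 1 is not reported here.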

Additional observations from a re-analysis of the deposited data

Results flagged for a closer look

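Among the called genes, 178 groups of 5 libraries were examined for 1 library apart from the other 4, and 15 had one. Chance gives about 1 in 20 for independent groups. These groups share the same libraries, so the count cannot be set against that rate. In young replicate 3, *Upb1* was lowest at 29.2 normalized counts, *Car5b* highest at 888 and *Igfbp2* highest at 299. In young replicate 4, *Ddx43* was lowest at 72.1, *Nt5e* lowest at 344 and *Il1r2* lowest at 34.97. In young replicate 5, *Stfa1* was highest at 883 and *Scgb2b24* highest at 366. At 24 months *Ddx43* was lowest in replicate 3 at 17.97, and replicate 5 was lowest for *Klc1* at 1528 and highest for *Dpt* at 62.1, *Col1a1* at 162, *Gm14743* at 2.82, *Pip* at 1.88 and *Gm5938* at 4.71, the last 3 with no reads in the other 24-month libraries.

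The called genes that also differed between 24 and 12 months included *Ide* by 0.95, *Kifc3* by 0.58 and *Hmgn5* by −0.73 on the log2 scale (limma adjusted p = 0.0306, 0.0306 and 0.043).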

How the results depend on the processing

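The 89 calls, 35 up and 54 down, became 49, 22 and 27 without young replicates 4 and 5 together, a setting chosen after the data were seen, with 45 calls shared. With only the 10 libraries compared, 23 genes were up (75 in all). Leaving out 1 library at a time gave 56 to 92 calls, 20 to 39 of them up and 36 to 55 down. The lowest counts came without 24-month replicates 3 (56) and 4 (59), and the counts up were 22, 20, 20 and 23 without 24-month replicates 1, 2, 3 and 4. The 4 genes called between 24 and 12 months became 0 in every fit without 1 of the 24-month libraries. Every other setting gave 74 to 102 calls. The log2 change of *Krt12* (−0.02) ranged from −0.0907 to 0.0225 with 1 library left out and was 0.0439 without young replicates 4 and 5, so it has no settled sign. Over 122 single genes and 21 settings, 2163 of 2539 values kept direction and side of the threshold, 369 lost the call and 3 gained one. Of 860 list medians 28 moved by over 1 SD, among them water and ion transport, from 0.03 to −0.13 without young replicate 4 and between −0.08 and −0.05 without young replicate 5, 24-month replicate 3 or 24-month replicate 4. Causes were not tested. Replicate numbers only name the libraries: deviations of same-numbered libraries correlated at −0.15 to 0.11, and a replicate block gave 86 calls (36 up), so no pairing was used. The number of reads limits genes near the filter, such as *Cdkn2a*, whose change ran from 1.59 to 4.56 over the settings (pseudocounts 10 and 0.1).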

Other observations

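*Ide* took separate levels across all 20 libraries. It had 673, 383, 486, 382 and 353 normalized counts at 12 months and 839, 664, 1007, 948 and 851 at 18 months. Young replicate 2 (717) and 12-month replicate 1 (673) lay with all 18- and 24-month libraries above 663, and the other 8 lay at 486 or below. *Fgfbp3*, a secreted carrier of fibroblast growth factors that lies near *Ide* on chromosome 19, had 66.9, 169, 117, 96.4 and 90.1 in the young libraries, highest in the same young replicate 2, 113, 85.5, 112, 96.2 and 38.2 at 12, 144, 162, 156, 179 and 154 at 18 and 129.7, 108, 145, 167 and 194 at 24 months. It was not called (log2 change 0.50, limma adjusted p = 0.566). A segment of chromosome 19 that holds both genes is known to vary in copy number among C57BL/6J mice, and copy number was not tested here.

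Circadian genes gave no call, but *Bhlhe40*, a clock repressor, was higher in every 24-month library (295 ± 74.5 and 490.2 ± 52.3, limma adjusted p = 0.107). *Ciart*, another, had 1.1, 10.5, 25.6, 1.06 and 0.949 in young and 35.1, 8.94, 13.2, 21.8 and 13.2 in 24-month libraries. The hour of collection is not given in the sources used here. *Acadl*, which starts the breakdown of long-chain fatty acids, was lower in every 24-month library (1053 ± 94.1 and 883 ± 58.2, limma adjusted p = 0.407).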
